A study of Mus musculus with 5 samples.

Results

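C1q+ macrophages were the cells of the 2 T cell libraries that carried at least 10 UMIs (unique molecular identifiers, each standing for 1 captured mRNA molecule) of C1qa, C1qb and C1qc together. They also had at least 1 UMI of Csf1r or Adgre1, none of Cd3e or Epcam and fewer than 3 of Dcn, among barcodes in which 500 or more genes were seen and mitochondrial UMIs did not exceed 10%. There were 132 of them among 3560 kept cells of the doxorubicin (DOX) sensitive library and 105 among 3250 of the resistant library, 237 of 6810 in all, and the 5 libraries of the series held 11119 barcodes. The cells were thus chosen by the counts of 8 genes, and the levels of C1qa, C1qb, C1qc, Csf1r, Adgre1, Cd3e, Epcam and Dcn describe that choice and are not findings.

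The series profiled 4T1-Thy1.1 tumors, a transplantable mouse mammary cancer line that carries the Thy1.1 surface tag, grown in the mammary fat pad of 12-week-old BALB/c mice. Both T cell libraries came from mice given DOX, a DNA-damaging anthracycline, at 5 mg/kg into the tail vein in 3 doses spaced 3 days apart, and the study sorted treated tumors into sensitive and resistant by their growth. T cells were enriched with the Pan T Cell Isolation Kit II, which removes labelled non-T cells on a magnetic column, together with CD90.1 beads against the cancer cells, and 3 tumors were pooled into each library. The C1q+ macrophages are thus cells that this depletion missed, their share can be set by how well it worked, and the tumor that a given cell came from cannot be told. Each group was 1 library, so no difference below has a replicate check or a p-value, and the bracketed 95% intervals and the floor of 3 counts used for a gene at 0 cover counting error only.

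C1q is the recognition part of the classical complement pathway and binds immune complexes and dying cells, and in mouse tissue most of it is made by macrophages. Macrophages depend on the M-CSF receptor encoded by Csf1r, clear dying cells, and display peptides to CD4 T cells on MHC class II. Tissue-resident macrophages that lie along vessels and nerves carry the scavenger receptor CD163, the mannose receptor (Mrc1) and folate receptor beta (Folr2), and macrophages that arise from recruited monocytes often carry more MHC class II and inflammatory chemokines.

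The depth behind these cells was high and alike in both libraries. The sensitive members held 1658191 UMIs, with a median of 12112 and a range of 1048 to 43207 per cell, and the resistant members 1374486 UMIs, with a median of 13089 and a range of 1574 to 26615. The median member had 3.53% mitochondrial UMIs in the sensitive library against 4.84% in the resistant one. The whole libraries differed more, since 5.90% of 3949 sensitive and 45.7% of 6116 resistant barcodes were over the mitochondrial limit. The libraries shared 31 barcode strings, 18 of them kept cells of both libraries, and none was a member.

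C1q+ macrophages made up 3.71% (3.11 to 4.38) of kept cells in the sensitive and 3.23% (2.65 to 3.90) in the resistant library, intervals of the exact binomial (Clopper-Pearson) kind. The sensitive over resistant ratio was 1.15 (0.892 to 1.48), so a difference in share was not detectable at this depth. The sum of C1q UMIs per member ran from 12 to 1076 with a median of 150.5 in the sensitive, and from 11 to 519 with a median of 153 in the resistant library. Members near the limit, with 10 to 19 C1q UMIs, numbered 9 and 10 and carried 21.6 and 12.7 C1q UMIs per 10000. Cells with 5 to 9 C1q UMIs that otherwise met the rule numbered 6 and 3 and carried 13.8 and 7.24 per 10000.

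Markers that the rule did not use fitted the macrophage label. With the genes of the rule left out, all 13 macrophage markers were present in both libraries, and their summed level was 40503 CPM (a gene's UMIs summed over the members of a library and scaled to a total of 1000000) in sensitive and 41816 CPM in resistant members. Markers of T and NK cells were near 0, with 7 of 10 seen at a summed 12.7 CPM in the sensitive and 9 of 10 at 21.8 in the resistant members. B cell markers summed to 12.7 and 24.0 with Cd79a and Ms4a1 at 0, dendritic cell markers to 4.82 and 2.18 with Flt3, Xcr1, Itgae and Siglech at 0, and fibroblast markers to 44.6 and 21.8 with Pdgfra at 0. Endothelial markers summed to 42.8 and 23.3 and cancer cell markers other than Epcam to 9.05 and 21.8. Neutrophil markers were higher, at 531 and 512 CPM, with S100a9 in 5 sensitive and 6 resistant members, S100a8 in 22 and 23, and Csf3r in 46 and 34. Monocyte markers summed to 3456 CPM in the sensitive and 1430 in the resistant members, a difference carried by Fn1 and Chil3, described below.

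**Figure D1:**
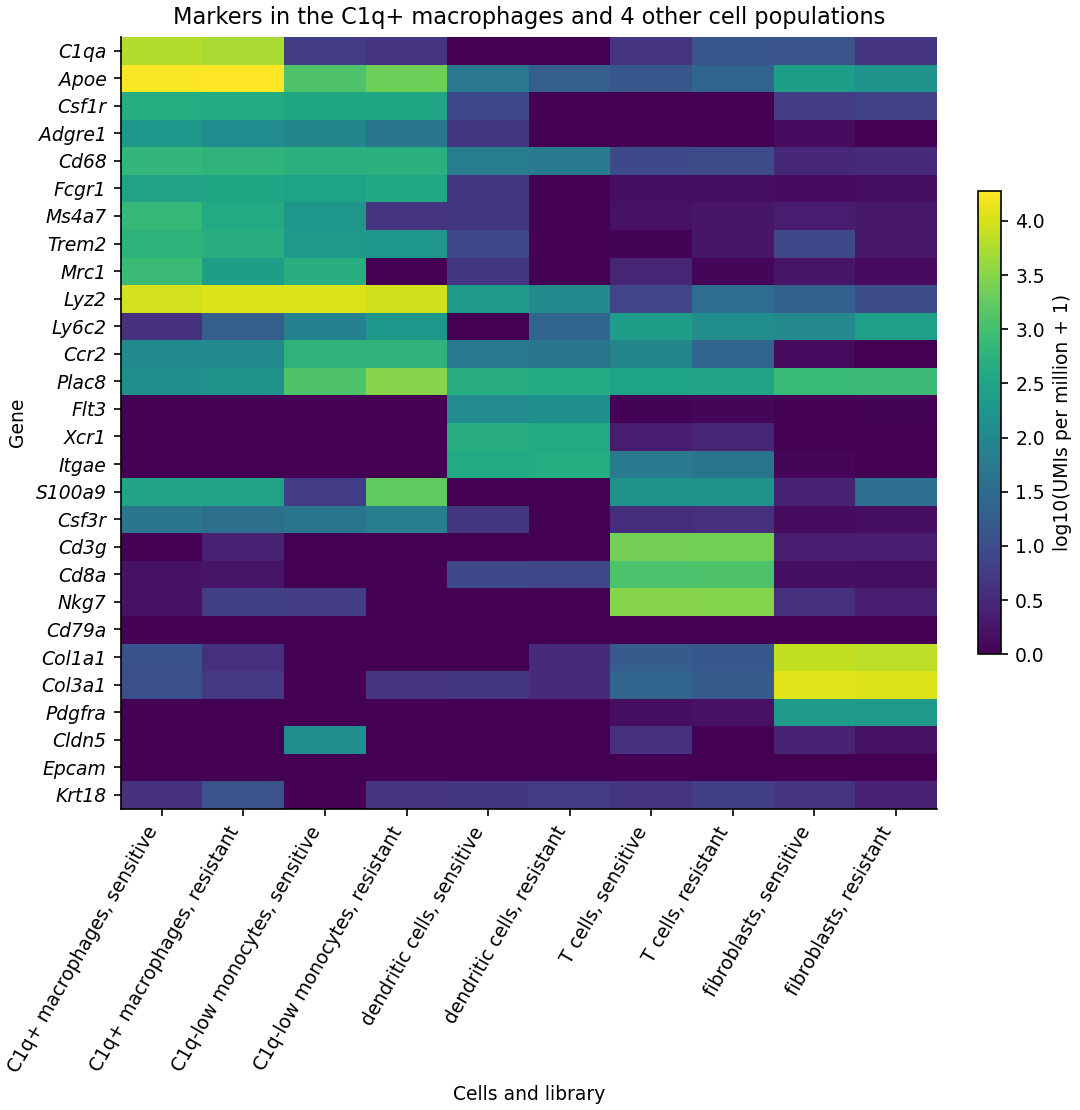
Levels of marker genes on a log10(CPM + 1) scale (color) in C1q+ macrophages and 4 other cell populations of each T cell library. The C1q+ macrophages are bright for Apoe, Cd68, Ms4a7, Trem2 and Lyz2 and dark for Flt3, Xcr1, Pdgfra and Cd79a in both libraries.

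Against all other kept cells of the same library, leaving out the genes of the rule and taking the lower of the 2 libraries for each gene, the highest folds included genes of macrophage surface and clearance. Ms4a7, a membrane protein of mature macrophages, was 92.4-fold above the other cells in the sensitive and 101-fold in the resistant library. The terminal complement component C6 was 96.1-fold and 82.4-fold higher, and Ccl12, a chemokine that draws monocytes, 75.2-fold and 72.4-fold. Apoe, the lipid carrier, was 49.7-fold and 61.0-fold higher, and Trem2, a lipid-sensing receptor, 41.0-fold and 43.1-fold. Ranking by the lower of the 2 libraries fixes that these genes were high in both. The high-affinity IgG receptor Fcgr1 (37.0-fold and 35.9-fold), Ly86, the partner protein of CD180 (44.8-fold and 52.1-fold), the lectin receptor Clec4a3 (38.4-fold and 33.4-fold) and the creatine-synthesis enzyme Gatm (32.0-fold and 34.0-fold) followed. Adamdec1, a secreted protease of macrophages, was 40.0-fold and 53.5-fold higher, and Zmynd15 44.7-fold and 33.6-fold. Mrc1 stood apart among the 12, with 60.2-fold in the sensitive and 108-fold in the resistant library, although its level in the members was higher in the sensitive library, at 825 against 240.1 CPM. Levels outside the members also enter these folds, and cells with C1q UMIs that failed another part of the rule are among the other cells. C1q-low monocytes (20 sensitive and 27 resistant cells) had Csf1r and Ly6c2, Ccr2 or Vcan but little C1q. Fcgr1 was not lower there, at 298.9 CPM in sensitive and 363.5 in resistant, against 293.1 and 318.7 in the members. Ms4a7 (179.3 and 3.53), Trem2 (204.2 and 180), Apoe (1200 and 2135) and Mrc1 (498.1 and 0) were lower in these monocytes than in the members.

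Between sensitive and resistant, most genes of the C1q+ macrophages stood at a like level. Of 3448 genes with at least 100 UMIs over the members of both libraries, 71.2% had a ratio between 0.8 and 1.25, and the median ratio was 1.01 (log2 0.01). At least 2-fold higher in the sensitive library were 73 genes, or 2.12%, and at least 2-fold higher in the resistant library were 16 genes, or 0.464%. The counting interval lay past 2-fold as well for 37 of the 73 and 6 of the 16. The plot of summed levels shows the genes past 2-fold on both sides of the diagonal.

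**Figure D2:**
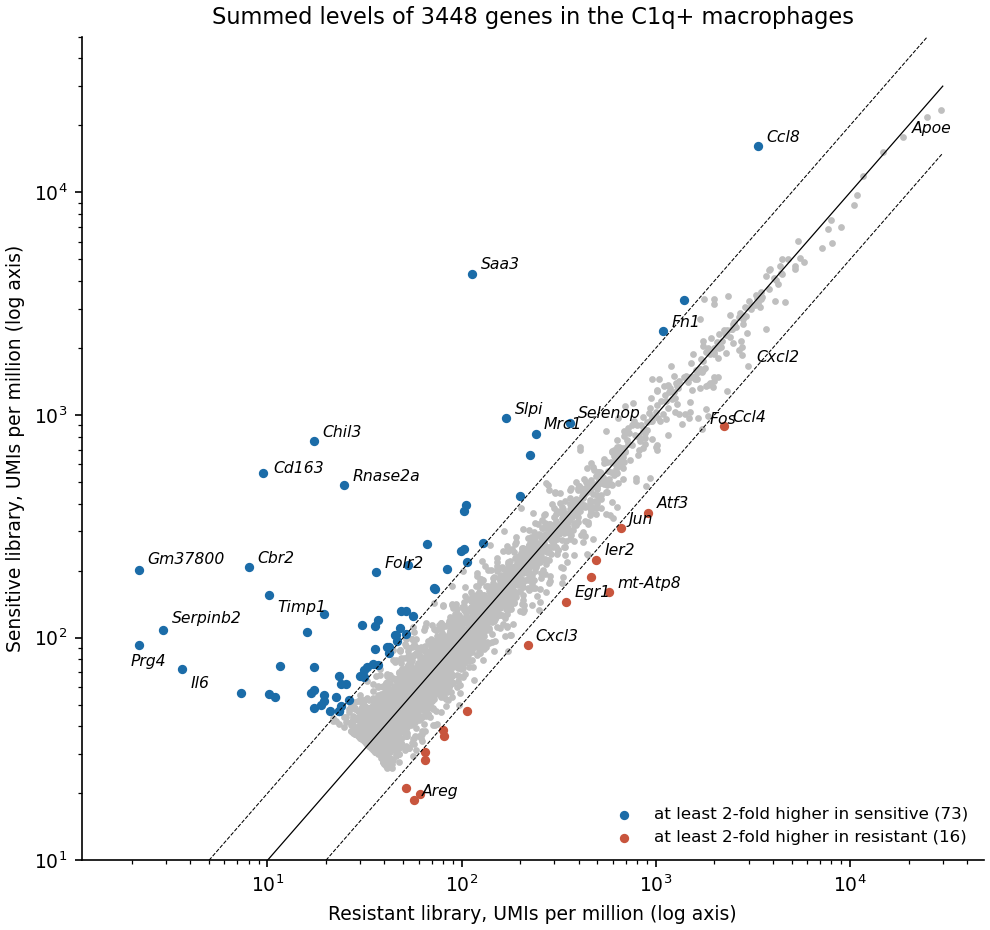
Summed level of each of 3448 genes in the C1q+ macrophages, in CPM on log axes, resistant library on x and sensitive library on y, with solid line for equal levels and dashed lines for 2-fold. The 73 genes at least 2-fold higher in sensitive (blue) include Cd163, Saa3 and Ccl8, and the 16 at least 2-fold higher in resistant (red) include Ccl4 and Atf3. Prg4, at 0 in resistant, is drawn at the floor of 3 counts.

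The resident-type list, genes known from tissue-resident macrophages, had the highest share past 2-fold. Of its 16 genes with enough UMIs, 11 were at least 2-fold higher in the sensitive library beside 2.12% of all genes, and none in the resistant library, with a median ratio of 2.52 (log2 1.33) beside 1.01 over all genes. The same genes had a median ratio of 1.67 in the T cells and 1.38 in the fibroblasts of the libraries. A sum cannot tell more cells with a gene from more of it per cell, so both are given below.

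Cd163, the receptor that takes up hemoglobin bound to haptoglobin, had 906 UMIs over the sensitive members against 13 over the resistant ones, or 546 against 9.46 CPM, a ratio of 57.8 (33.6 to 109). It was seen in 23 of 132 sensitive members, with 0.922 to 80.7 UMIs per 10000 in a positive cell, and in 2 of 105 resistant members, at 4.76 and 25.3, so the median cell had none in either library. With each cell given equal weight, as the mean of per-cell CPM, the ratio was 16.8, and the resistant value rests on 2 cells. In T cells, which should lack it, 0.337% of 1782 sensitive and 0.118% of 1698 resistant cells had a Cd163 UMI, at median depths of 4103 and 4724.5 UMIs. When 2000 UMIs were drawn from every member to even out depth, with 9 sensitive and 2 resistant members too shallow to enter, the share was 16.3% (10.2 to 24.0) against 0.971% (0.0246 to 5.29). Cd163 was thus a gene of a minority of the sensitive members and nearly missing from the resistant ones.

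Cbr2, carbonyl reductase 2, followed the same pattern with 207 against 8.00 CPM, a ratio of 25.9 (14.3 to 52.4), and UMIs in 31 sensitive and 7 resistant members. Folr2 had 198 against 36.4 CPM, a ratio of 5.44 (4.03 to 7.48), in 50 and 14 members. Thinned shares were 14.6% against 0.971% for Cbr2 and 20.3% against 4.85% for Folr2, and no thinned T cell had a Folr2 UMI in either library. All of these were minority genes, whereas the next were widespread. Mrc1, the mannose receptor, had a ratio of 3.44 (3.04 to 3.89) and was seen in 75.0% of sensitive and 75.2% of resistant members before thinning. After thinning its shares were 52.0% (42.8 to 61.1) and 30.1% (21.5 to 39.9), with 0.183% and 0.123% in T cells. The median sensitive member carried 2.51 Mrc1 UMIs per 10000 and the median resistant member 1.94, while the highest carried 105 and 25.3. The ratio of the sums therefore came from a tail of high cells in the sensitive library.

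Ccl8, a chemokine that draws monocytes and T cells through CCR2 and CCR8, was the most abundant of the genes past 2-fold. It had 16166 CPM in the sensitive and 3369 in the resistant members, a ratio of 4.80 (4.65 to 4.95), with UMIs in 91 and 55 cells. Per 10000 UMIs, the lowest, median and highest sensitive members had 0, 6.31 and 1756, and the resistant members 0, 0.744 and 416. Both libraries therefore held cells without Ccl8 beside cells rich in it, and the ranges overlapped. Thinned shares were 51.2% (42.0 to 60.3) and 40.8% (31.2 to 50.9), whose intervals overlap. In T cells 3.18% of sensitive and 0.864% of resistant cells had a Ccl8 UMI after thinning, and the Ccl8 ratio was 3.83 there, so the same direction was measured in cells that carry little of it.

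Other members of the list were also higher in the sensitive library by at least 2-fold. Selenop, which carries selenium, had 924 against 359 CPM (2.57), the IgG transport receptor Fcgrt, from the Fc receptor list, 660 against 225 (2.93), and the endocytic receptor Stab1 246 against 99.7 (2.47). Maf, a transcription factor of resident macrophages, had 204 against 83.7 (2.44), and Gas6, the bridge between dying cells and TAM receptors, 113 against 35.6 (3.18). Fcna, a lectin that starts complement, had 114 against 30.6 (3.73), and the growth factor Igf1 75.4 against 37.1 (2.03). The list did not move as a whole. Pf4 (1.16), F13a1 (0.886) and Ms4a7 (1.72) did not reach 2-fold, the first falling to 0.669 and F13a1 to 0.464 without the cells with Cd163 or Prg4 described below, with F13a1 at 3.98 in thinned cells. The fractalkine receptor Cx3cr1 was lower in sensitive, with a ratio of 0.639 (0.554 to 0.738). Cd209f, a lectin below the UMI minimum, had 39 UMIs against 0, 10.8-fold higher with the 0 read as 3 counts. Lyve1, the hyaluronan receptor, had only 10 and 1.

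Position and sequence give the context of these genes. Cd163 lies on chromosome 6 (chr6:124304656-124330527, plus strand), Ccl8 on chromosome 11 (chr11:82115185-82116799, plus strand) and Folr2 on chromosome 7 (chr7:101839988-101857194, minus strand), all protein coding, in GRCm38.p6. The 200 bases before their annotated starts are shown because the 3 genes were high in the same cells, with RefSeq as the source, 5′ to 3′ on the strand of the gene. Capitals mark TGCTGA or its reverse complement TCAGCA, the core letters of sites that Maf proteins can bind, since Maf itself was higher in the sensitive members. The windows are chr6:124304451-124304650, chr11:82114985-82115184 and chr7:101845332-101845531.
Cd163: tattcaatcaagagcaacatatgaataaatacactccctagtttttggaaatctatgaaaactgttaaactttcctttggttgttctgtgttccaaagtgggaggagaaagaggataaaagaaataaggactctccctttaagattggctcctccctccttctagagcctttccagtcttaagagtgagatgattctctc
Ccl8: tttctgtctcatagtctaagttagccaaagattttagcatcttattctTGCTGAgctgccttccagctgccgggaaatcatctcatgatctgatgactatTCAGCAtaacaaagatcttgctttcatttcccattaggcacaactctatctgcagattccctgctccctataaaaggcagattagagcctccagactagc
Folr2: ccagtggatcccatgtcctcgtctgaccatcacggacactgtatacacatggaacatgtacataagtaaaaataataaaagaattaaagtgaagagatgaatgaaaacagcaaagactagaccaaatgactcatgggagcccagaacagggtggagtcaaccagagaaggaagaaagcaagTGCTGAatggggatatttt

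Ccl8 had the motif at -152 and -100 from its start, Folr2 at -19 from the more downstream of its 2 listed starts, and these letters were not in the Cd163 window. Searched on both strands over 250 bases before any listed start of a gene, the motif was found in 5 of 16 matched resident-type genes (31.2%). Of all 27025 genes with a listed promoter, 4871 had it (18.0%). A match describes the letters and not a bound site.

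**Figure D3:**
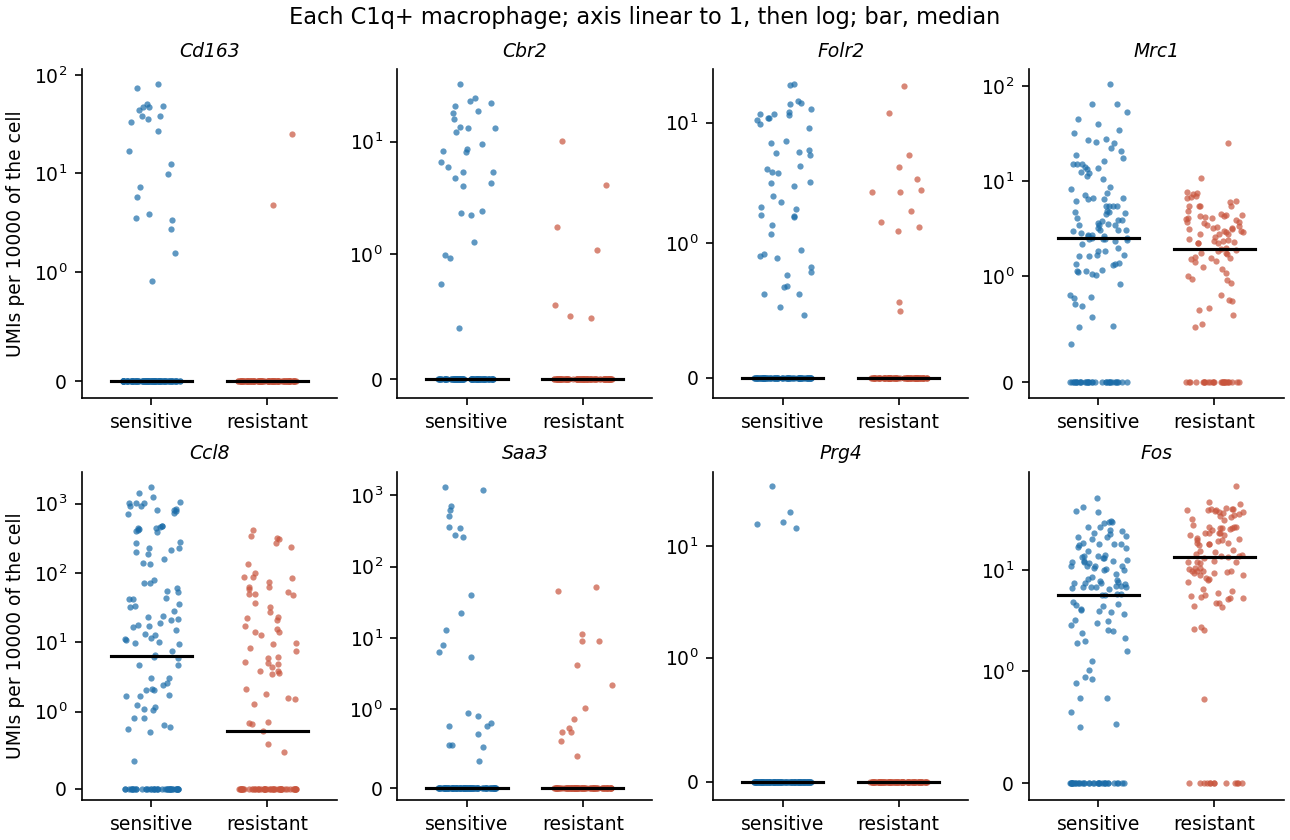
UMIs per 10000 of each C1q+ macrophage for 8 genes (y axis linear to 1, then log), 132 sensitive members in blue and 105 resistant members in red, with the median as a bar. Cd163, Cbr2 and Prg4 are at 0 in most cells of both libraries and Saa3 reaches 1322 in the sensitive library, while the Fos medians are 5.71 and 13.4.

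The Cd163 transcripts came from cells that shared a set of other genes. The 23 sensitive members with a Cd163 UMI were 17.4% (11.4 to 25) of members and held 16.0% of their UMIs, but 94.2% of the Cbr2, 78.5% of the Ccl8, 74.1% of the Folr2 and 68.1% of the Mrc1 UMIs. All 23 had Ccl8 and Mrc1, and 21 had Cbr2 and 21 Folr2. They also held 98.9% of UMIs of the gap junction gene Gja1 (90 of 91), 86.4% of the gelatinase gene Mmp9, 60.1% of Fcgrt and 54.4% of Selenop. Mmp9 was seen in only 6 of the 23. For Apoe their part was 9.36%, below their part of all UMIs. This subset was drawn after the values had been seen, so the shares describe it and test nothing.

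These cells carried little MHC class II. Cd74, the class II chaperone, stood at 1754 CPM in the sensitive cells with Cd163 and at 25612 in those without, and H2-Aa, a class II chain, at 324 and 8084. Cx3cr1 stood at 22.6 against 243 and Fos at 301 against 977. Ccl8 reached 79189 CPM in the cells with Cd163 and 4141 in those without. The resistant library held 2 cells with Cd163 (1.9% of members, 0.232 to 6.71), and both had Mrc1, Folr2 and Ccl8. In those 2 cells Cd74 (8567 against 25158 CPM in the other resistant members) and H2-Aa (1330.2 against 7752) were lower, as in sensitive, but Cx3cr1 (1064 against 314, all its UMIs in 1 of the 2) and Fos (2182 against 1714) were higher.

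Over the thinned members, the Spearman correlation between Cd163 and Cbr2 was 0.76 in the sensitive (123 cells) and -0.01 in the resistant library (103 cells). That between Mrc1 and Ccl8 was 0.67 and 0.08, and between Cd163 and Cd74 it was -0.62 and -0.10. H2-Aa and Cd74 went together in both, at 0.91 and 0.83, as did Cxcl2 and Fos, at 0.43 and 0.43. The cells of a library share its preparation and pool, and in the resistant library Cd163 was present in too few cells for a rank correlation to say more. Without the cells with Cd163 in both libraries, the ratio was 1.43 for Ccl8, 1.36 for Mrc1, 2.24 for Folr2 and 2.43 for Cbr2. It was 1.54 for Selenop and 1.29 for Stab1, and the median of the list was 1.39. Without cells with Prg4 as well, the ratio was 1.67 for Cbr2, 1.06 for Fcna, 1.38 for Igf1, 1.53 for Maf, 1.68 for Gas6 and 1.45 for Fcgrt. Most of the resident-type difference in the sums was therefore held by these 23 cells.

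A smaller set of 5 sensitive members (3.79%, 1.24 to 8.62) carried Prg4, the gene of lubricin. It had 154 UMIs against 0 in the resistant members, 42.6-fold higher with the 0 read as 3 counts. With 0 of 105 resistant members positive, the floor of 3 cells puts the share of cells with a Prg4 UMI at up to 2.86% there, which is no limit on cells that express it. The 5 cells had a median of 12857 UMIs, 96 to 289 C1q UMIs and 6 to 14 Adgre1 UMIs each, so they were not cells at the limit of the rule. They had no Cd163, only 2 Ccl8 UMIs and 1 Mrc1 UMI between them, and 1 Col1a1 UMI.

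Saa3, an acute-phase protein, was almost wholly theirs. It had 7156 UMIs against 156, or 4316 against 113.5 CPM, a ratio of 38.0 (32.4 to 44.9), in 25 and 14 cells, and 90.9% of the sensitive UMIs lay in the 5 cells at 648 to 1810 per cell. Without those cells its ratio was 3.62. Saa3 was also higher in T cells of the sensitive library, with a ratio of 9.71, and 2.45% of sensitive and 0.864% of resistant T cells had a UMI after thinning.

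The 5 cells also held 92.7% of the UMIs of Slpi, a leukocyte protease inhibitor, of which 1063 were in 1 cell, and 96.1% of Serpinb2, an inhibitor of plasminogen activators. Slpi stood at 970.3 against 169.5 CPM (5.72, 4.99 to 6.6), and without the 5 cells it was lower in the sensitive members, with a ratio of 0.440. Serpinb2 stood at 109 against 2.91 (37.3, 14.3 to 138) and at a ratio of 1.52 without them. Thbs1, the matrix protein thrombospondin 1, likewise went from 6.63 to 0.434. For these genes the direction or the size of the difference rested on 5 cells of 1 pool. All 99 UMIs of the lipoxygenase gene Alox15, all 34 of P-selectin (Selp) and all 30 of the scavenger protein gene Cd5l in sensitive members were in these cells, with 93.8% of Thbs1 and 92.9% of coagulation factor F5. Gata6, the transcription factor of large peritoneal macrophages, had 3 UMIs in 1 of them, and Timd4, a receptor for dying cells, 5 UMIs in 3.

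Several other sensitive-high genes of the rule for named genes were also held by few cells. Chil3, a chitinase-like secreted protein, had 765 against 17.5 CPM (43.8, 29.3 to 68.7), but 84.5% of its UMIs came from 1 of 16 positive cells. Il6, the cytokine interleukin 6, had 120 UMIs in 16 sensitive and 5 in 4 resistant members (19.9, 8.29 to 62.4), of which 60.8% were in the cells with Prg4. Rnase2a, an eosinophil-type ribonuclease, had 487 against 24.7 CPM (19.7, 14.0 to 28.6) in 18 and 4 cells, and 65.7% was in the cells with Cd163. Gm37800, a long noncoding RNA gene, had 333 against 3 UMIs, a ratio of 92.0 (31.2 to 448), in 22 and 3 cells, and 88.0% of the sensitive UMIs were in the cells with Cd163, without which the ratio was 13. Timp1, an inhibitor of matrix proteases, was seen in 36 sensitive and 10 resistant members, with 49.8% of the sensitive UMIs in the cells with Cd163 and 33.1% in those with Prg4. It had 155 against 10.2 CPM (15.2, 8.90 to 28.2), and 10.6% against 0% of thinned members had a UMI, with 2.63% and 1.11% in T cells. Without the cells with Cd163 or Prg4, and with the same genes compared, 18 of the 73 were still at least 2-fold higher in the sensitive library, among them Timp1 (3.49), Il6 (8.65), Chil3 (47.6) and Folr2 (2.12).

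Some genes of matrix handling stood higher in the sensitive library. Fn1, fibronectin, had 2391 against 1094 CPM (2.19, 2.06 to 2.32), and its ratio was 1.11 without the cells with Cd163 or Prg4. Timp2 (2.17) and Adam8 (2.06) brought the matrix list to 5 of 14 genes at least 2-fold higher in sensitive, beside 2.12% of all genes, and none in resistant, with a median ratio of 1.36. Without the cells with Cd163 or Prg4 the median was 1.06, Timp2 had a ratio of 1.27, Adam8 1.73 and Thbs1 0.515. None of the 5 matrix metalloproteinases with at least 100 UMIs was past 2-fold, with ratios of 0.626 for Mmp9, 0.732 for Mmp12, 0.664 for Mmp13, 0.983 for Mmp14 and 1.34 for Mmp19. Below that minimum, Mmp8 had 11 against 52 UMIs (0.175, 0.0825 to 0.340), 48 of the 52 in a single cell, and Mmp2 had 12 against 20 (0.497, 0.222 to 1.07). Without the cells with Cd163 the ratio was 0.749 for Mmp19 and 0.117 for Mmp9, from 26 UMIs in 5 sensitive cells against 217 in 8 resistant cells. Spp1, osteopontin, had a ratio of 1.58, but the median member had 1.01 UMIs per 10000 in sensitive and 3.23 in resistant. Of the suppressive enzymes and checkpoint ligands, with a median of 1.11 over 13 genes, the PD-L1 gene Cd274 had a ratio of 0.977 (0.789 to 1.21).

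In the other direction stood the immediate early genes, which cells switch on within minutes of a stimulus. Of 19 with enough UMIs, 4 were at least 2-fold higher in the resistant library, where 0.464% of all genes were, and none in the sensitive library, and 18 had a ratio below 1, with a median of 0.587 (log2 -0.77). Atf3, a stress-induced transcription factor, had 365 against 914 CPM, a ratio of 0.399 (0.362 to 0.440). Per 10000 UMIs the median sensitive member had 1.08 Atf3 UMIs and the median resistant member 6.99, and the highest had 33.3 and 33.1. The middle of the distribution therefore differed and its top did not.

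Fos, a subunit of the AP-1 transcription factor, had 869 against 1721 CPM (0.505, 0.473 to 0.539), with medians of 5.71 and 13.4 UMIs per 10000 and highest values of 51.3 and 67.1. Its partner Jun had 311 against 658 (0.473), the transcription factor Egr1 145 against 346 (0.420) and Ier2 224 against 493 (0.455). Under the alternatives run, the highest ratios were 0.5002 for Jun, 0.502 for Egr1 and 0.515 for Ier2, just short of 2-fold. Atf3 stayed past 2-fold, at up to 0.472. Dusp1, a phosphatase that shuts off MAP kinases (0.539), Nr4a1 (0.504) and Zfp36, which destroys cytokine mRNAs (0.654), lay on the same side without reaching 2-fold, and Fosl2 (1.15, 0.883 to 1.5) was the exception. After thinning, the share of members with an Egr1 UMI was 13.8% (8.26 to 21.2) against 36.9% (27.6 to 47.0), and with an Atf3 UMI 35.8% (27.3 to 44.9) against 57.3% (47.2 to 67.0). These intervals do not overlap, unlike those for Fos, at 59.4% (50.1 to 68.1) and 74.8% (65.2 to 82.8). Without the cells with Cd163 or Prg4 the list median was 0.655, and with a mitochondrial limit of 5% it was 0.571.

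In T cells and most often in fibroblasts, these genes had ratios above 1. In T cells all 19 had a ratio above 1, with a median of 1.89, and in fibroblasts 15 of 19, with a median of 1.14. The T cell ratio was 2.55 for Fos, 2.19 for Atf3 and 1.89 for Egr1, and the fibroblast ratio for Fos was 1.18. A test of the difference between cell types was not possible with 1 library per group.

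**Figure D4:**
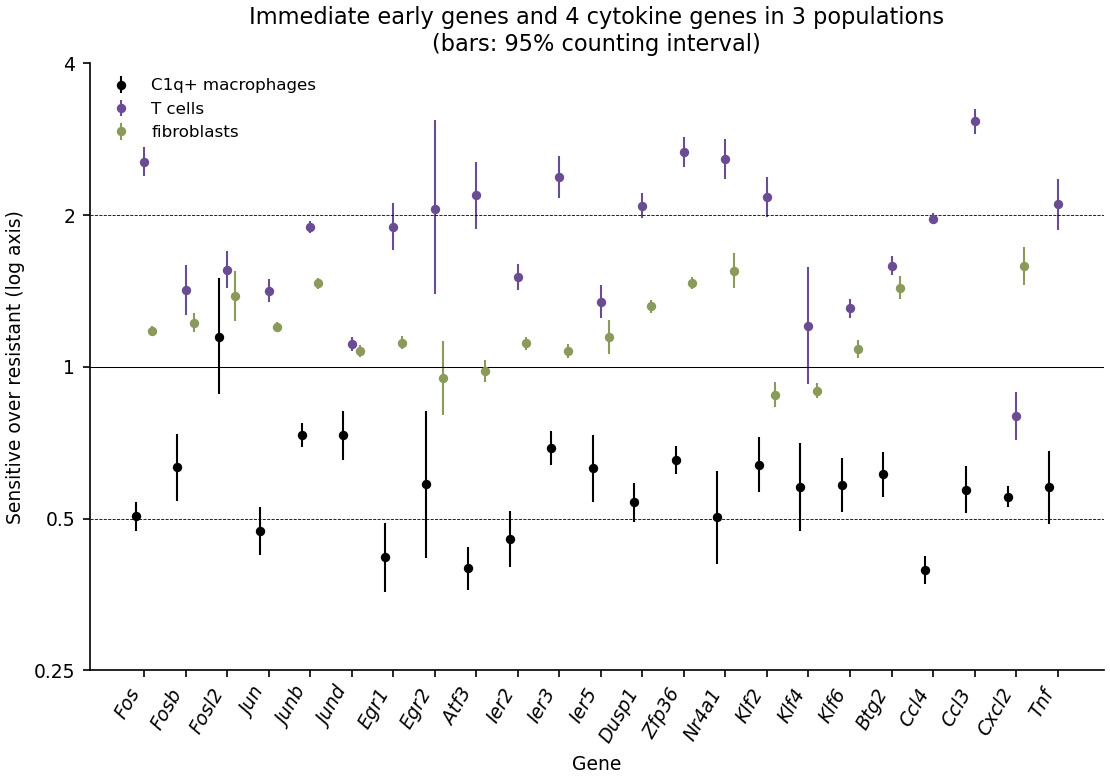
Sensitive over resistant ratio of summed CPM (log axis) for 19 immediate early genes and 4 cytokine genes in C1q+ macrophages (black), T cells (purple) and fibroblasts (green), bars giving 95% counting intervals. The macrophage points lie below 1 except Fosl2 (1.15), while the T cell points of the immediate early genes lie above 1.

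Fos lies on chromosome 12 (chr12:85473890-85477273, plus strand), Atf3 on chromosome 1 (chr1:191170296-191218039, minus strand) and Dusp1 on chromosome 17 (chr17:26505590-26562128, minus strand). The 200 bases before their RefSeq starts (GRCm38.p6, strand of the gene) are shown because these genes stood together and because many immediate early promoters hold sites for CREB and ATF proteins. Capitals mark TGACG or its reverse complement CGTCA, searched on both strands. The windows are chr12:85473690-85473889, chr1:191183334-191183533 and chr17:26508473-26508672.
Fos: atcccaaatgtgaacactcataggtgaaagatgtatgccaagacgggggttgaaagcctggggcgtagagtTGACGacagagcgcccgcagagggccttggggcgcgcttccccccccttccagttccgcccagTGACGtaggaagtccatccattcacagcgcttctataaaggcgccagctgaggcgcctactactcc
Atf3: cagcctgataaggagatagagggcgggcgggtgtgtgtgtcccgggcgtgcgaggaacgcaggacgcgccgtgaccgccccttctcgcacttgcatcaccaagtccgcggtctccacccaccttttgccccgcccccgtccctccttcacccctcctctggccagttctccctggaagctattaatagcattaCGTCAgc
Dusp1: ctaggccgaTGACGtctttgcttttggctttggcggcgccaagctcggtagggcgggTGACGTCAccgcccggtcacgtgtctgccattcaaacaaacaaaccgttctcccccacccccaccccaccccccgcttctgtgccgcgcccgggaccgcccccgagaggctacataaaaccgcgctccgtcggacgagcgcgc

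The motif began at -129 and -66 in Fos, at -7 in Atf3, and at -191, -143 and -140 in Dusp1, where the last pair overlap as TGACGTCA. Within 250 bases it was found in 10 of 17 matched immediate early genes (58.8%) and in 2 of 16 resident-type genes (12.5%). It was found in 5347 of all 27025 genes with a listed promoter (19.8%), while TGCTGA was in 0 of the 17.

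Chemokines of the CXC family, which mainly draw neutrophils and T cells, leaned to the resistant library. Of 7, none was at least 2-fold higher in sensitive and Cxcl3 was at least 2-fold higher in resistant, beside 2.12% and 0.464% of all genes, with a list median of 0.553 (log2 -0.86). Cxcl2, which draws neutrophils, had 1654 against 2994 CPM (0.553, 0.526 to 0.580) and was seen in 35% (26.6 to 44.1) against 68.0% (58.0 to 76.8) of thinned members. Cxcl1 had a ratio of 0.523, Cxcl9, which draws CXCR3+ T cells, 0.538, and Cxcl3 0.423 with UMIs in 6 and 11 cells only, while Cxcl16 was level at 1.01. Cxcl3 had a ratio of 0.508 without the cells with Cd163 or Prg4 and of 0.0768 with C1q at least 20 UMIs. The CC chemokines had no common direction, with a median of 1.09 over 10 genes. Ccl4, which draws monocytes and T cells, had 890.1 against 2248 CPM (0.396, 0.372 to 0.421), with a UMI in 31.7% (23.6 to 40.7) and 61.2% (51.1 to 70.6) of thinned members. T cells also make Ccl4, and there the ratio was 1.97 with 47.0% and 39.7% of thinned cells positive, so the members and the T cells went opposite ways. Ccl3 (0.571) and Ccl2 (0.646) were lower and Ccl6 (1.46), Ccl9 (1.77) and Ccl12 (1.51) higher in sensitive.

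The other resistant-high genes named by the rule included mitochondrial transcripts. mt-Atp8, a subunit of ATP synthase, had 160.4 against 574 CPM (0.279) and mt-Nd3, of complex I, a ratio of 0.403. The ratios were 0.194 and 0.243 in T cells and 0.224 and 0.322 in fibroblasts, so the same direction was measured in all 3 populations. Nfkbid (0.326), a regulator of NF-kappaB, Phlda1 (0.443) and the cystine transporter Slc7a11 (0.448) were also past 2-fold, and Areg, an EGF receptor ligand (0.329), was seen in only 4 cells of each library. The ratio was 0.547 for both Phlda1 and Slc7a11 without the cells with Cd163 or Prg4, and 0.624 for Areg with C1q at least 20 UMIs. Axl, a receptor for Gas6, had a ratio of 0.536 and after thinning was found in 19.5% (12.9 to 27.6) against 42.7% (33.0 to 52.8) of members, with 1.65% and 1.42% in T cells. The low-affinity IgG receptor Fcgr3 went the other way, at 84.6% (76.9 to 90.4) and 65.0% (55.0 to 74.2). Of 378 listed genes with thinned shares, 17 had intervals that did not overlap, 6 higher in sensitive and 11 higher in resistant. The 17 were among the 275 listed genes with at least 100 UMIs, or 6.18%, beside 1.42% of all 3448 such genes (0.493% higher in sensitive and 0.928% in resistant), and the lists were chosen with earlier results of these data known.

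The core equipment of the cells differed little. None of 10 MHC class II, 15 MHC class I, 23 lysosomal, 14 lipid handling, 23 glycolytic, 10 M-CSF axis, 9 cell cycle or 8 heat shock genes was past 2-fold. The MHC class II genes had a median ratio of 0.873 with all 10 below 1, and Cd74 had 21789 against 24931 and H2-Aa 6841 against 7664 CPM, ratios of 0.874 and 0.893. Without the cells with Cd163 the ratios were 1.02 and 1.04. Apoe had 17743 against 18791 CPM (0.944), and the medians of the lysosome, lipid and MHC class I lists were 1.07, 1.19 and 0.957. Complement genes had a median of 1.17, and of 8 Fc receptor genes only Fcgrt was past 2-fold (list median 1.04). Interferon-stimulated genes had a median of 0.947 with 1 of 23, Ly6a (2.33, and 1.65 without the cells with Cd163 or Prg4), past 2-fold, and inflammatory cytokines 0.743 with 1 of 12, Il6. Of the 12 cytokine genes, 10 had a ratio below 1. Il1b, interleukin 1 beta, had a ratio of 0.910 (0.861 to 0.961) and Tnf 0.577. The median member had 4.82 Il1b UMIs per 10000 in sensitive and 12.5 in resistant. In all, 31 of 275 listed genes with enough UMIs were past 2-fold in either direction, beside 2.58% of all genes tested, and the plot of lists shows how they spread.

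**Figure D5:**
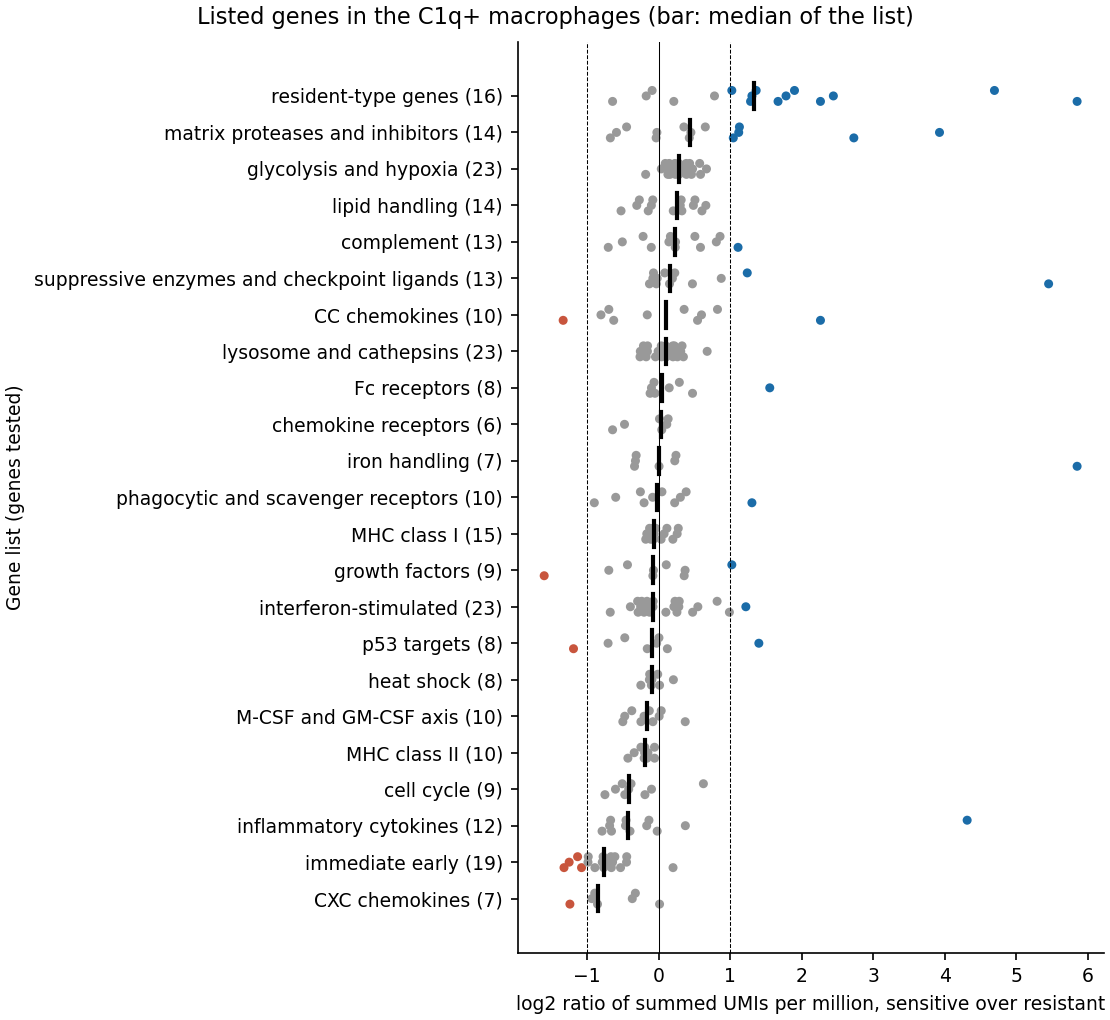
Log2 ratio of summed CPM, sensitive over resistant, for the genes of 23 lists (number of genes in brackets); each point is a gene, the bar the list median, blue and red points lie past 2-fold. The resident-type genes lie highest with a median of 1.33 and the CXC chemokines and immediate early genes lowest, at -0.86 and -0.77.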

How the data were processed

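The authors sequenced droplet single-cell libraries, ran Cell Ranger against mm10, the mouse genome, and deposited the raw UMI counts of every gene and barcode, not normalized, and the file headers give Cell Ranger 6.0.0 for the T cell libraries. A member is a barcode that met the rule given at the start of the report, and no doublets were removed, since the Scrublet caller marked only 1 barcode in each library. Levels are UMIs summed over members as CPM, ratios carry exact conditional binomial 95% intervals, and shares carry Clopper-Pearson intervals after 2000 UMIs were drawn from each cell. Genes needed 100 UMIs over the members of both libraries. The genes named besides the lists were the 12 past 2-fold in each direction with the interval bound farthest from 1, and the 12 highest over other cells. Members and gene lists were chosen with earlier results of these data known. T cells had at least 2 Cd3e UMIs and no Csf1r or Adgre1, and fibroblasts at least 3 of both Dcn and Col1a1 and no Ptprc. Motifs were searched in RefSeq promoters (GRCm38.p6), leaving out those of 1 chromosome. Results on some genes are not reported here. The ratio and its interval were tested on simulated summed counts, drawn without a spread between cells, and the thinning was checked for the depth it leaves. Python 3.11.15, NumPy 2.4.6, SciPy 1.17.1, pandas 2.3.3, Scanpy 1.11.5 and Matplotlib 3.10.9 were used.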

Additional observations from a re-analysis of the deposited data

Results flagged for a closer look

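Of 56 genes past 2-fold in the C1q+ macrophages that also had 100 UMIs in T cells, 15 went the other way in T cells of the same libraries, with T cell intervals that left out 1. The difference between the cell types was not tested, since each group was 1 library. The same share over all genes was not counted, so the 15 are a list and not a rate. T cells held 9342815 UMIs in sensitive and 9995155 in resistant, so their intervals are narrow and leave out 1 at small differences. Lower in sensitive macrophages and higher in sensitive T cells were 10 of the 15. The sensitive over resistant ratio was 0.326 in macrophages and 1.94 in T cells for Nfkbid, 0.329 and 2.60 for Areg, 0.396 and 1.97 for Ccl4, and 0.399 and 2.19 for Atf3. It was 0.409 and 1.5 for the phosphatase gene Dusp2, 0.420 and 1.89 for Egr1, 0.423 and 2.38 for Cxcl3, 0.443 and 1.53 for Phlda1, 0.455 and 1.51 for Ier2, and 0.473 and 1.42 for Jun. Areg and Cxcl3 lay in few macrophages, and Cxcl3 had only 140 sensitive and 63 resistant UMIs in T cells.

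Higher in sensitive macrophages and lower in sensitive T cells were the other 5. Their ratios were 6.63 and 0.390 for Thbs1 and 3.39 and 0.796 for Cemip2, which breaks down hyaluronan. They were 2.31 and 0.592 for the kinase gene Bmp2k, 2.19 and 0.836 for Fn1, and 2.07 and 0.735 for Xdh, xanthine dehydrogenase. Fn1 was low in T cells, at 24.1 CPM in sensitive and 28.8 in resistant, beside 5185 and 5296.5 in fibroblasts. Its T cell interval reached 0.999, and Thbs1 had only 67 and 184 UMIs in T cells. Without the macrophages with Cd163 or Prg4 the ratio was 0.515 for Thbs1, on the side of the T cells, 1.11 for Fn1, 1.25 for Bmp2k, 1.67 for Xdh and 1.87 for Cemip2.

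By the same rule, the whole-tumor libraries, which the comparisons do not use, held C1q+ macrophages too. They were 4 of 354 kept cells (1.13%, 0.309 to 2.87) in the library labelled control, 1 of 168 (0.595%, 0.0151 to 3.27) in that labelled sensitive and 23 of 248 (9.27%, 5.97 to 13.6) in that labelled resistant, above the control. The last library has conflicting labels, since its source field names a sensitive tumor, and mitochondrial genes had no counts there, so that limit removed no cell. Cd163 had 0, 3 and 5 UMIs in these cells.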

How the results depend on the processing

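No paired analysis was possible because each group was 1 library. The share of C1q+ macrophages kept its ratio between 0.965 and 1.27 under every alternative run. Genes at least 2-fold higher in sensitive numbered 73 and in resistant 16 as reported. With members thinned to 2000 UMIs there were 15 and 9 (602 genes with enough UMIs), with a minimum of 30 UMIs 247 and 87, with 1 UMI 841 and 540, and with the interval also past 2-fold 37 and 6. Leaving out cells with Cd163, an alternative chosen after seeing the data like the others by Cd163, Prg4 or a 5% mitochondrial limit, gave 28 in sensitive, and leaving out cells with Cd163 or Prg4 gave 14, genes again needing 100 UMIs in the cells left. Listed genes past 2-fold, 31 as reported, were 14 thinned, 17 without cells with Cd163 and 11 without cells with Cd163 or Prg4. Listed genes with non-overlapping shares, 17 thinned, were 40 unthinned. Without cells with Prg4, and without cells with Cd163 or Prg4, the ratio reversed for Slpi (0.440 and 0.486) and Thbs1 (0.434 and 0.515), and the cells held most of their UMIs. Of 1573 ratios of 113 named genes under alternatives, 1258 stayed within the interval of the reported ratio and 311 left it. The 4 others are the Slpi and Thbs1 ratios above, the only ones of named genes counted as past 2-fold that crossed 1. Lrg1, past 2-fold at 6.42 but not a named gene, had 0.956 without cells with Cd163 or Prg4. Over all 113 named genes 74 ratios of 34 genes lay on the other side of 1. Among these were Lyve1, with few UMIs, at 8.29 under the reported settings and 0.568 with a 20% mitochondrial limit, and Clec10a, also below the UMI minimum, at 2.03, then 0.919 without cells with Cd163 and 0.973 without cells with Cd163 or Prg4. Of 37 named genes past 2-fold, 13 stayed past it in the same direction under every alternative run. The resident-type median ran from 1.39 to 3.48, that of the immediate early genes from 0.555 to 0.655 and that of the CXC chemokines from 0.525 to 0.674.

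The limits are 1 library per group, pools of 3 tumors, cells that passed a depletion meant to remove them, and a UMI minimum that leaves low genes undescribed.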

Other observations

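Genes of glycolysis and hypoxia leaned slightly to the sensitive library, with 22 of 23 ratios above 1 and a median of 1.21, none past 2-fold. Ndrg1, a hypoxia-induced gene, had 209 against 132 CPM (1.59, 1.32 to 1.91), and Bnip3, a mitophagy receptor, 285 against 191 (1.49). Of 8 p53 target genes with enough UMIs, Phlda3 was at least 2-fold higher in sensitive (2.64) and Pmaip1, which promotes cell death, at least 2-fold higher in resistant (0.438), beside 2.12% and 0.464% of all genes, while Cdkn1a, the p21 cell cycle inhibitor, was at 0.895 and Mdm2 at 0.720. Phlda3 had a ratio of 1.68 and Pmaip1 of 0.509 without the cells with Cd163 or Prg4. The 9 cell cycle genes had a median of 0.748, and after thinning 10 of 123 sensitive (8.13%, 3.97 to 14.4) and 11 of 103 resistant members (10.7%, 5.45 to 18.3) had a UMI of at least 1 of 5 cycling genes, a difference not detectable at this depth. Ferritin genes were lower in sensitive members, with ratios of 0.798 for Fth1 and 0.791 for Ftl1. The IL-17 receptor genes were too low to compare, and Il17ra had 43 and 31 UMIs.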
